A study of Mus musculus with 2 samples.

Results

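The 10 genes described here are ligands, receptors and an antagonist of interleukin-1-type signalling in nuclei of mouse heart: Il1b, Il18, Il33, Il1rn, Il1r1, Il1rl1, Il18r1, Il1rap, Il6 and Il6st. They were taken by symbol, and all 10 were found among the 32245 gene symbols of the files. Il6 and Il6st belong to the interleukin-6 family and are held beside the other 8. Nuclear RNA of cardiac tissue was sequenced in 2 libraries made with a 10x Genomics Chromium 3′ v3 kit, which counts each captured RNA molecule once by a molecular identifier (UMI). Both libraries came from male C57Bl6/J mice aged 3.5 months that carried Tcf21-MerCreMer, a Cre recombinase switched on by tamoxifen in cells that express Tcf21, mainly fibroblasts in the heart, and both groups were injected with tamoxifen. The library labelled CF-KI was homozygous for the A350V allele of Nlrp3, which the design text describes as silent where Cre has not acted, and the library labelled Control carried wild-type Nlrp3. How many animals each library holds is not given in the labels. With 1 library per group, every difference below is between these 2 libraries with no replicate check and no test, and the 95% intervals given cover counting error only.

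Interleukin-1beta and interleukin-18 are made as precursors that caspase-1 cuts once an inflammasome such as the one built by NLRP3 has formed, whereas interleukin-33 is held in the nucleus of barrier and stromal cells and acts when it is released. Each ligand binds its own receptor chain, IL1R1 for interleukin-1, ST2 (encoded by Il1rl1) for interleukin-33 and IL18R1 for interleukin-18. IL1RAP is the second chain shared by IL1R1 and ST2, and GP130, encoded by Il6st, is the shared signalling chain of the interleukin-6 family. A ligand's RNA says nothing of its cutting or release.

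The CF-KI library held 15077 barcodes and 21603653 UMIs, the Control library 11257 barcodes and 18040776 UMIs, and 46 barcode sequences occurred in both. The median mitochondrial share was 14.2% in CF-KI and 3.46% in Control. After removal of called doublets, 12681 and 10858 nuclei were kept, with medians of 810 and 1046 non-mitochondrial UMIs. Clustering gave 11 classes that both libraries filled with 50 or more nuclei, each named from its markers with the ending "-like". Barcodes of very high mitochondrial share (1794 in CF-KI and 237 in Control) were set aside from every class but stay in the values given over all nuclei. RNA of airway cells (Scgb1a1 or Bpifa1) was found in 43.1% of Control nuclei and 0.0237% of CF-KI nuclei, and a class of 126 airway epithelial-like nuclei was present in Control alone. Nlrp3 itself had 34 UMIs in CF-KI and 19 in Control. All 19 Control UMIs lay in macrophage-like nuclei, while CF-KI had 8 there, 6 in fibroblast-like and 9 in cardiomyocyte-like nuclei. The 3′ counts do not tell the alleles apart.

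The sequences that bear on the results are shown here, with positions in RefSeq's GRCm38.p6 tables, where all 10 genes were matched. Il33, the ligand with the largest difference in a class with ample counts, has 2 annotated starts, and the 250 bases before each are given because 3′ counts cannot say which start was used. The first lies at chr19:29924863-29925112 and the second at chr19:29945540-29945789, both on the plus strand, the second inside the gene and outside every GENCODE exon. The bases before the start of Il1b (chr2:129371140-129371389, minus strand) are shown as those of the ligand found in macrophage-like nuclei. Capitals mark TATAAA on either strand.
Il33, first start: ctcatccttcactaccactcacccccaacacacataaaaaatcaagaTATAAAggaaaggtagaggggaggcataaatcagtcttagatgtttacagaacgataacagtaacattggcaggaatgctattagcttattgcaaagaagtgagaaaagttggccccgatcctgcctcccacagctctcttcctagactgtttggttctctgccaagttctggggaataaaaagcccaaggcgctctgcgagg
Il33, second start: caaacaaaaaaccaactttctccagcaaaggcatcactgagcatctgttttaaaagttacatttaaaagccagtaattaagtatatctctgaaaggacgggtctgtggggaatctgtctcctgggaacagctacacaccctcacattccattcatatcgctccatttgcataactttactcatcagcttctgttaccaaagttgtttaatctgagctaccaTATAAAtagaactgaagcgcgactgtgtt
Il1b: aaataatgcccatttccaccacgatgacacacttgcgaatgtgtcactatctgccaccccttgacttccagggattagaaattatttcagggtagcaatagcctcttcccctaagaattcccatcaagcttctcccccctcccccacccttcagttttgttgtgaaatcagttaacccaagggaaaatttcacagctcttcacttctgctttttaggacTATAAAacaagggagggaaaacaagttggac
TATAAA ended at position -24 before the second Il33 start and at -26 before the Il1b start, counted back from the base just before the start, but at -198 before the first Il33 start. It was found in 12.4% of 32851 windows of the same length. The AP-1 motif TGANTCA (6.75% of windows) and the NF-kappaB consensus (3.90%) were searched on both strands as well, and neither occurred in these 3 windows. A match is a run of letters and not a measured site.

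Il33 encodes interleukin-33, an alarmin of epithelial and stromal nuclei. In both libraries its level was highest in mesothelial-like nuclei, the cells of the heart's outer lining, and it was higher there in CF-KI. Mesothelial-like nuclei held 86 Il33 UMIs in 539 CF-KI nuclei and 42 in 660 Control nuclei, or 135 CPM (108 to 167; UMIs per 1000000 non-mitochondrial UMIs) against 49.9 CPM (36.0 to 67.4). The intervals did not overlap, and the ratio was 2.72-fold, a log2 ratio of 1.44 (0.89 to 2.01). At least 1 Il33 UMI was found in 11.3% of CF-KI and 5.45% of Control mesothelial-like nuclei, and in 4.97% and 2.29% after each nucleus was thinned to 500 UMIs. In cardiomyocyte-like nuclei the thinned shares were 0.168% and 0.0915%. Mesothelial-like nuclei were 4.25% of CF-KI and 6.08% of Control nuclei but carried 40.2% and 30.2% of each library's Il33 UMIs.

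Il33 in fibroblast-like nuclei came next, with 75 UMIs in CF-KI and 62 in Control, or 23.1 CPM against 15.05 CPM, a log2 ratio of 0.62 (0.11 to 1.13). They held 35.0% of the Il33 UMIs of CF-KI and 44.6% of those of Control, where they held more than mesothelial-like nuclei did. These nuclei fell into 3 clusters that the libraries filled unevenly: cluster 0 held 3015 CF-KI and 176 Control nuclei and cluster 1 held 204 and 2384. The cluster that both libraries filled (510 and 1008 nuclei) had the highest Il33 in each, at 31.3 CPM in CF-KI and 22.6 CPM in Control. Pericyte-like nuclei had 13.4 CPM and 11.1 CPM on 4 and 5 UMIs, and lymphatic endothelial-like nuclei 3 UMIs in CF-KI and 0 in Control, with intervals that overlapped those of fibroblast-like nuclei in both libraries. The smooth muscle genes Myh11 and Tagln were among the leading genes of the pericyte-like class, so its levels are not those of pericytes alone. Over all nuclei Il33 had 214 and 139 UMIs, or 15.4 CPM against 8.73 CPM, a log2 ratio of 0.81 (0.50 to 1.13).

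Mesothelial-like nuclei were divided further to see where Il33 lay. A sub-cluster led by Dmkn and Lgals7, genes also known from skin, held 61 Il33 UMIs in 101 CF-KI nuclei and 22 in 132 Control nuclei, at 262 CPM and 90.5 CPM. Within it the log2 ratio was 1.53 (0.81 to 2.31). The 2 largest sub-clusters were each filled mostly by 1 library and led by RNA of other cells. Cardiomyocyte genes such as Myl2 and Tnni3 led the sub-cluster with 395 CF-KI nuclei (21 Il33 UMIs, 61.3 CPM). Within it the log2 ratio was -0.25 (-2.89 to 5.12), with 1 Control UMI. Airway genes such as Bpifa1 and Scgb1a1 led the sub-cluster with 470 Control nuclei (17 UMIs, 34.4 CPM). There the ratio was 0.86 (-2.30 to 2.94), with 2 CF-KI UMIs. In the remaining sub-cluster it was 1.73 (-2.05 to 5.52) on 2 UMIs in each library. These 3 intervals include 0. Without the Dmkn-led nuclei the log2 ratio was 0.90. The summed level of the 10 mesothelial markers was 5643 CPM in CF-KI and 5153 CPM in Control, with Muc4 at 0 in each. Free RNA, estimated as the level of other classes' markers in the class relative to the whole library, was 37.9% and 29.1%, and the median mitochondrial share was 9.65% and 3.004%. With at most 5% mitochondrial UMIs, which leaves 79 CF-KI nuclei, the log2 ratio of Il33 was 1.55. It was 1.64 with free RNA subtracted and 1.34 without nuclei holding airway RNA.

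**Figure D1:**
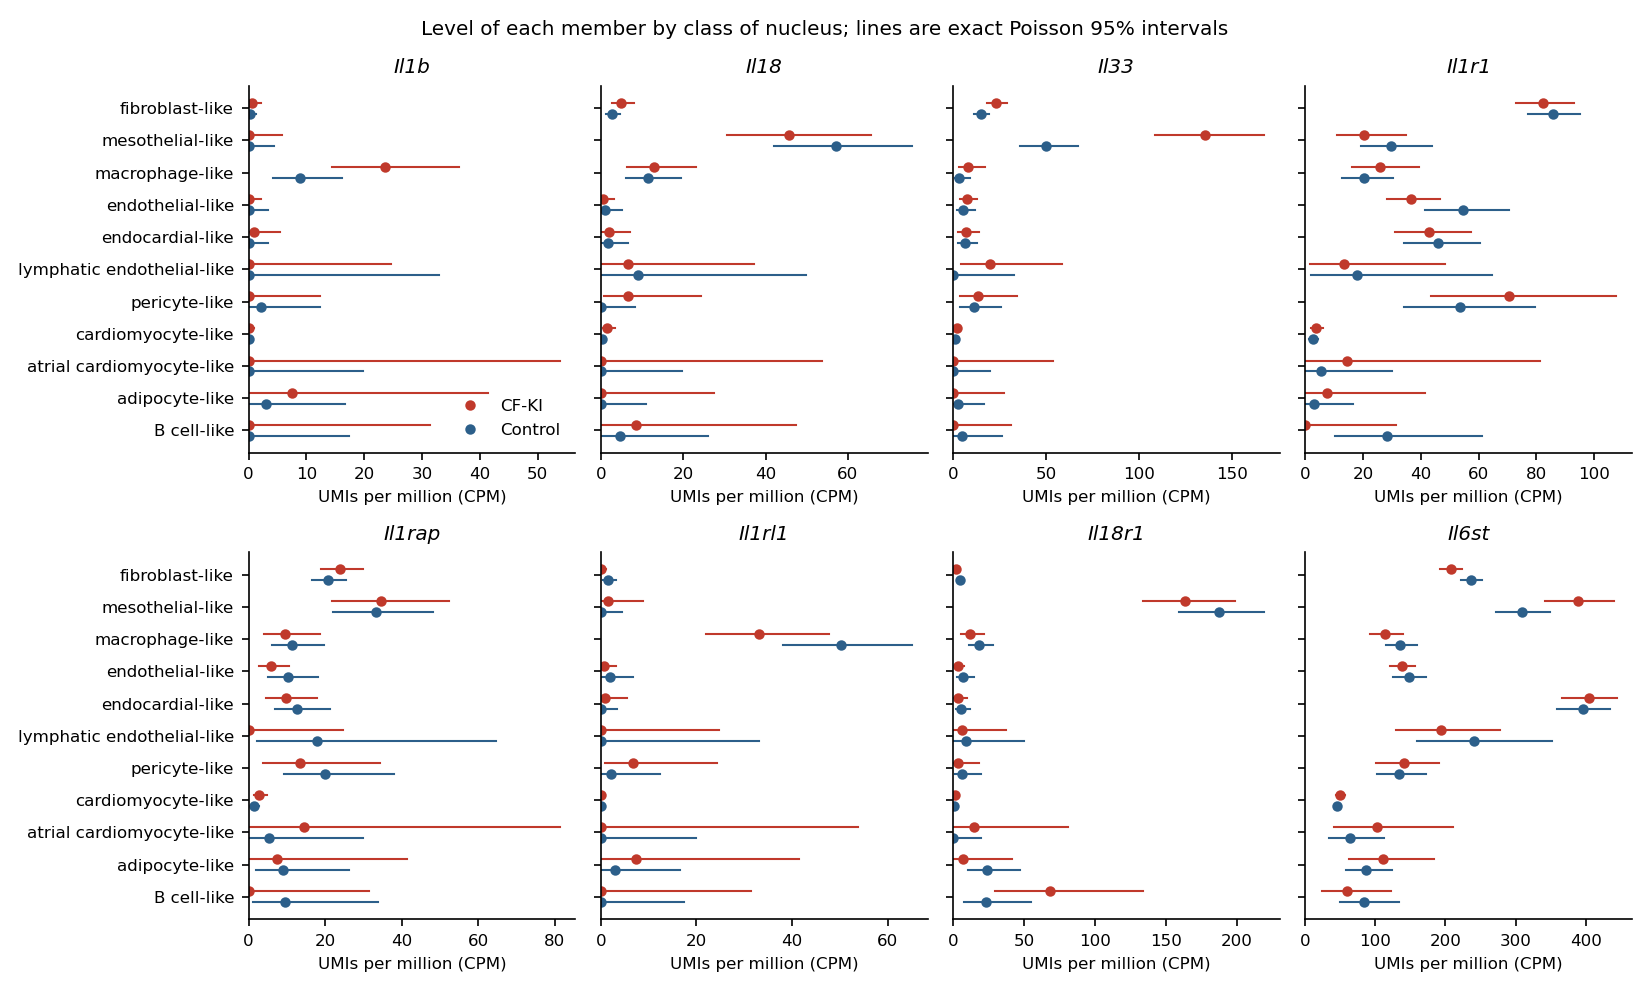
Level of 8 of the 10 genes in CPM (x axis, a separate scale in each panel) in 11 classes of nuclei (y axis) in CF-KI (red) and Control (blue), with exact Poisson intervals as lines. Il33, Il18 and Il18r1 are highest in mesothelial-like nuclei of both libraries, Il1r1 in fibroblast-like and Il1rl1 in macrophage-like nuclei.

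The plot of levels by class shows the other ligands to be far sparser. Il1b, the inflammasome-dependent ligand of myeloid cells, had 25 UMIs in all of CF-KI and 13 in all of Control. Macrophage-like nuclei held 80.0% of them in CF-KI and 76.9% in Control: 20 UMIs in 531 nuclei (23.6 CPM, 14.4 to 36.4) against 10 in 992 nuclei (8.81 CPM, 4.22 to 16.2). The log2 ratio was 1.42 (0.26 to 2.68), and the intervals of the levels overlapped. The CF-KI value leaned on 1 nucleus. It held 8 of the 20 Il1b UMIs together with 313 UMIs of granulocyte markers and 2 of macrophage markers, whereas the median macrophage-like nucleus of CF-KI had 0 granulocyte and 6 macrophage marker UMIs. The summed level of granulocyte markers, with that nucleus included, was 389 CPM for CF-KI and 42.3 CPM for Control, with 4 of the 9 at 0 in each. A granulocyte marker UMI was found in 14 of 531 macrophage-like nuclei of CF-KI (2.64%). In Control it was found in 37 of 992 (3.73%), so the higher CF-KI sum did not come with a higher share of such nuclei. With the nucleus of most Il1b UMIs left out of each library the counts were 12 and 8, and the log2 ratio was 1.01. Without nuclei that had a granulocyte marker UMI it was 0.57, and with at most 20% mitochondrial UMIs it was 0.45. Of the 10 Control UMIs 7 lay in nuclei with airway RNA, and without such nuclei the log2 ratio was 2.27. The libraries filled macrophage-like sub-clusters unevenly. Il6st UMIs of CF-KI and Control were 1 and 32 in sub-cluster 1, 0 and 25 in sub-cluster 2 and 21 and 0 in sub-cluster 3. Il1b had 0 and 4 UMIs in sub-cluster 1, 10 and 0 in sub-cluster 3, 7 and 0 in sub-cluster 4 and 2 and 5 in sub-cluster 5.

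No Il1b UMI was found in mesothelial-like or cardiomyocyte-like nuclei of either library. For mesothelial-like nuclei this allows up to 0.557% of CF-KI and 0.455% of Control nuclei with a UMI. Fibroblast-like nuclei, the class that the Tcf21-driven Cre is meant to reach, had 2 Il1b UMIs in CF-KI and 1 in Control among 3729 and 3568 nuclei, so that a difference was not detectable at this depth. On the opposite strand Il1bos overlaps Il1b, Bco2 and Tex12 overlap Il18, and Gm20319 overlaps Il1rap. How strand was used in counting is not given in the sources used here. On the same strand Gm38070 overlaps Il1r1, a pair that strand cannot separate.

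Il18, encoding the other ligand that caspase-1 matures, was highest in mesothelial-like nuclei as well. Its level there was 45.7 CPM in CF-KI (29 UMIs) and 57.0 CPM in Control (48 UMIs), with a log2 ratio of -0.32 (-1.04 to 0.37) and overlapping intervals. Macrophage-like nuclei followed with 12.96 CPM (11 UMIs) and 11.4 CPM (13 UMIs), and fibroblast-like nuclei had 4.92 CPM and 2.67 CPM. Mesothelial-like nuclei carried 38.2% of the Il18 UMIs of CF-KI and 60.8% of those of Control. Over all nuclei the gene differed little, with 76 and 79 UMIs and a log2 ratio of 0.14 (-0.34 to 0.61).

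Il6, the cytokine whose receptor signals through GP130, and Il1rn, encoding the antagonist that blocks IL1R1, were close to 0. Il6 had 3 UMIs in CF-KI and 2 in Control, of which mesothelial-like nuclei held 2 and 1. Il1rn had 2 UMIs in CF-KI, both in macrophage-like nuclei, and 0 in Control, which allows up to 0.0276% of Control nuclei with a UMI. Neither gene had enough UMIs for a ratio.

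The class of highest level differed among the receptor genes, and for Il18r1 and Il1rap it was mesothelial-like, as for Il18 and Il33. Il1r1, the signalling receptor of interleukin-1, was highest in fibroblast-like nuclei, at 82.4 CPM in CF-KI (268 UMIs, 72.8 to 92.9) and 85.7 CPM in Control (353 UMIs, 77.0 to 95.1). The log2 ratio was -0.06 (-0.29 to 0.18), and the intervals overlapped almost wholly. These nuclei held 56.4% and 60.1% of all Il1r1 UMIs. Across the 3 fibroblast-like clusters its level lay between 77.5 and 90.9 CPM for CF-KI and between 75.8 and 96.0 CPM for Control. Pericyte-like nuclei came next in CF-KI at 70.5 CPM and had 53.5 CPM in Control, with intervals that overlapped those of fibroblast-like nuclei in both libraries. Endothelial-like nuclei had 36.7 CPM and 54.6 CPM, a log2 ratio of -0.57 (-1.11 to -0.04), and endocardial-like nuclei 42.8 CPM and 46.0 CPM. Cardiomyocyte-like nuclei had 3.71 CPM and 2.61 CPM.

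Il1rl1, encoding the interleukin-33 receptor ST2, was found in macrophage-like nuclei. These held 28 of 35 UMIs in CF-KI and 57 of 68 in Control, or 33.0 CPM (21.9 to 47.7) against 50.2 CPM (38.0 to 65.0). The log2 ratio of -0.61 (-1.31 to 0.07) included 0. The share of macrophage-like nuclei with an Il1rl1 UMI was 5.08% in CF-KI and 5.24% in Control, and 2.20% and 3.25% after thinning. Cardiomyocyte-like nuclei had 0 UMIs in both libraries, and mesothelial-like nuclei, where its ligand was highest, had 1 in CF-KI and 0 in Control. The summed level of the 12 macrophage markers was 4654 CPM for CF-KI and 9518 CPM for Control, and the free RNA estimate for the class was 60.6% and 36.9%. Their part in the Il1rl1 ratio, and that of the uneven sub-clusters, was not tested.

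Il18r1, the ligand-binding chain for interleukin-18, was highest in mesothelial-like nuclei, at 164 CPM in CF-KI (104 UMIs, 134 to 198) and 188 CPM in Control (158 UMIs, 160 to 219). The intervals overlapped and the log2 ratio was -0.20 (-0.57 to 0.17). An Il18r1 UMI was found in 14.1% and 19.4% of mesothelial-like nuclei, against 0.0839% and 0.137% of cardiomyocyte-like nuclei after thinning, where the mesothelial-like shares were 7.46% and 9.30%. All 4 mesothelial sub-clusters carried it, between 129 and 250 CPM for CF-KI and between 142 and 219 CPM for Control. B cell-like nuclei came next in CF-KI, with 8 UMIs there and 5 in Control (68.1 and 23.5 CPM). Adipocyte-like nuclei had 1 and 8 UMIs (7.43 and 23.8 CPM), and macrophage-like nuclei 10 and 21 (11.8 and 18.5 CPM). Fibroblast-like nuclei had 7 UMIs in CF-KI and 20 in Control, 2.15 CPM against 4.85 CPM, with a log2 ratio of -1.17 (-2.66 to 0.13). Over all nuclei Il18r1 was lower in CF-KI, with a log2 ratio of -0.63 (-0.92 to -0.35). The Control-only airway epithelial-like nuclei held 41 of the 280 Control UMIs at 131 CPM, and without nuclei with airway RNA the ratio was -0.30. Il18rap, the second chain of that receptor, had 0 UMIs in mesothelial-like nuclei of both libraries and 14 and 9 UMIs over all nuclei.

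Il1r1, Il1rl1 and Il18r1 lie in a row on chromosome 1, all on the plus strand (GRCm38). Il1rl1 ends at chr1:40465415 and Il18r1 starts at 40465552, which leaves 136 bases between the gene found in macrophage-like nuclei and the gene found in mesothelial-like nuclei. The stretch is given as the shortest distance between neighbouring genes of the row.
Il1rl1 to Il18r1 (chr1:40465416-40465551, plus strand): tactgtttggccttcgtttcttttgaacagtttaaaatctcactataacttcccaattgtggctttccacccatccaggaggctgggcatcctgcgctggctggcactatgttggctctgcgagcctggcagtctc
It held none of the 3 motifs searched above, and 50.7% of its bases were G or C. In this row the class of highest level changed from gene to gene: fibroblast-like for Il1r1, macrophage-like for Il1rl1 and mesothelial-like for Il18r1.

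**Figure D2:**
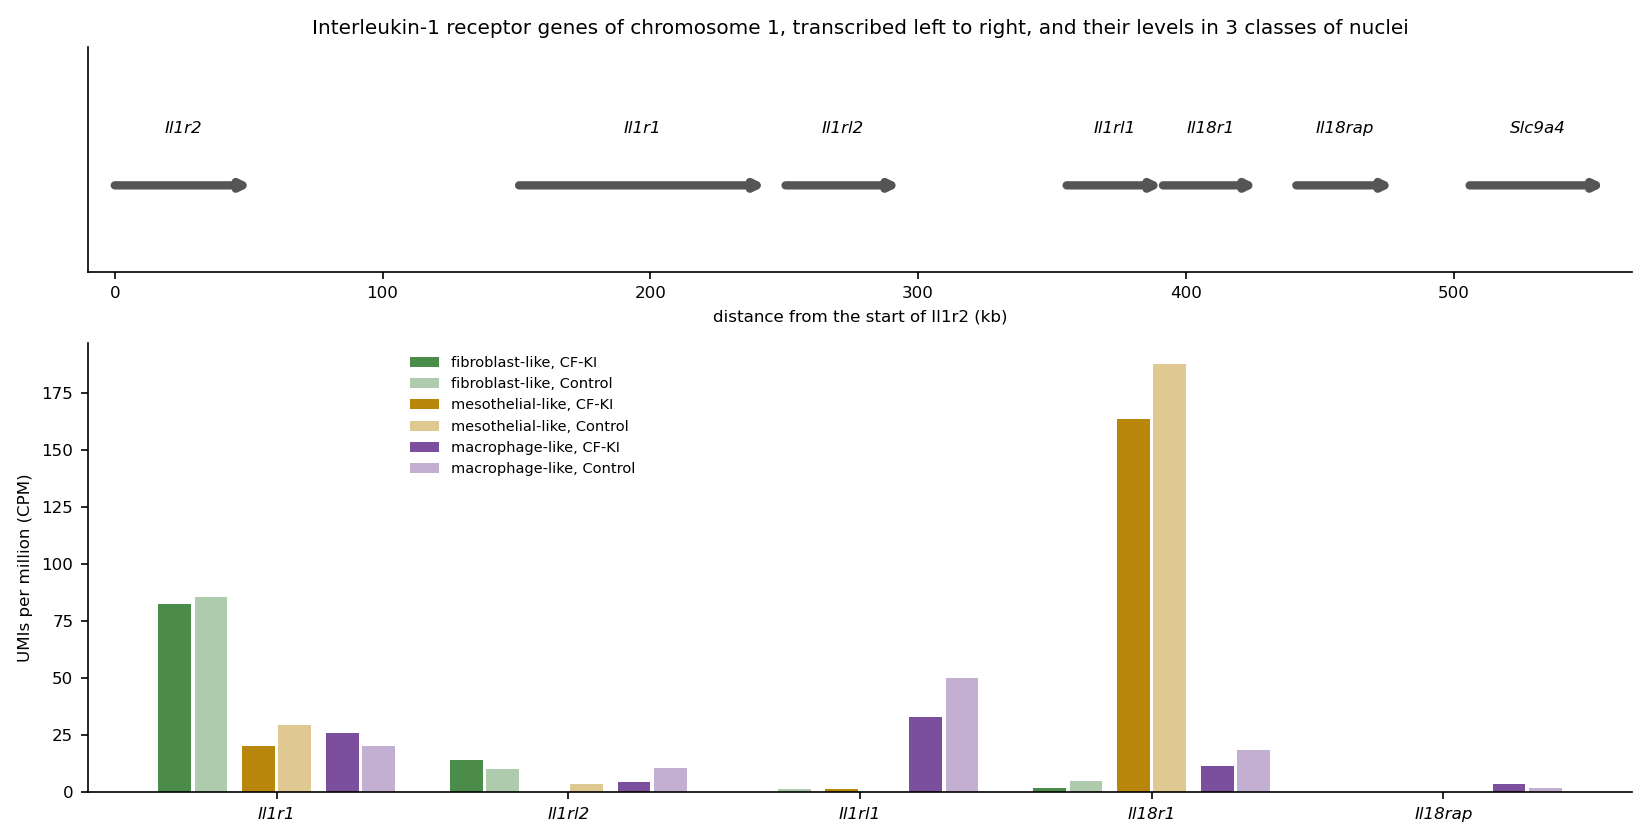
Upper panel, genes of the interleukin-1 receptor row drawn to scale by distance in kb from the start of Il1r2, with arrows in the direction of transcription. Lower panel, CPM of 5 of them in fibroblast-like, mesothelial-like and macrophage-like nuclei of CF-KI (full colour) and Control (pale), to be compared within a gene: Il18r1 reaches 164 and 188 CPM in mesothelial-like nuclei, and Il1rl1 33.0 and 50.2 CPM in macrophage-like nuclei.

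The map of the receptor row shows how close Il1rl1 and Il18r1 lie while their UMIs lay in different classes. The shared chains were found in more classes. Il1rap was highest in mesothelial-like nuclei (34.6 CPM in CF-KI and 33.3 CPM in Control) and next in fibroblast-like nuclei (24.0 CPM and 20.6 CPM), with overlapping intervals between these classes. Fibroblast-like nuclei held 50.3% and 47.8% of its UMIs, and the log2 ratio there was 0.22 (-0.25 to 0.68). Cardiomyocyte-like nuclei had 12 and 8 Il1rap UMIs, a log2 ratio of 1.00 (-0.41 to 2.50) that lies on the 2-fold line and whose interval includes 0. Il1r1 and Il1rap were seen in the same fibroblast-like nucleus 5 times in CF-KI and 9 times in Control, where the product of their shares gives 5.07 and 7.44 nuclei.

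Il6st had UMIs in all 11 classes and was highest in endocardial-like nuclei, at 404 CPM in CF-KI and 396 CPM in Control, with a log2 ratio of 0.03 (-0.17 to 0.23). Mesothelial-like nuclei were close behind at 389 CPM and 309 CPM, a log2 ratio of 0.33 (0.08 to 0.59), and in CF-KI the intervals of these classes overlapped. Fibroblast-like nuclei had 208 CPM and 237 CPM, a log2 ratio of -0.19 (-0.33 to -0.05). Cardiomyocyte-like nuclei were lowest at 50.1 CPM and 45.9 CPM. The total of 2177 and 2467 UMIs gave a log2 ratio over all nuclei of 0.01 (-0.07 to 0.10).

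**Figure D3:**
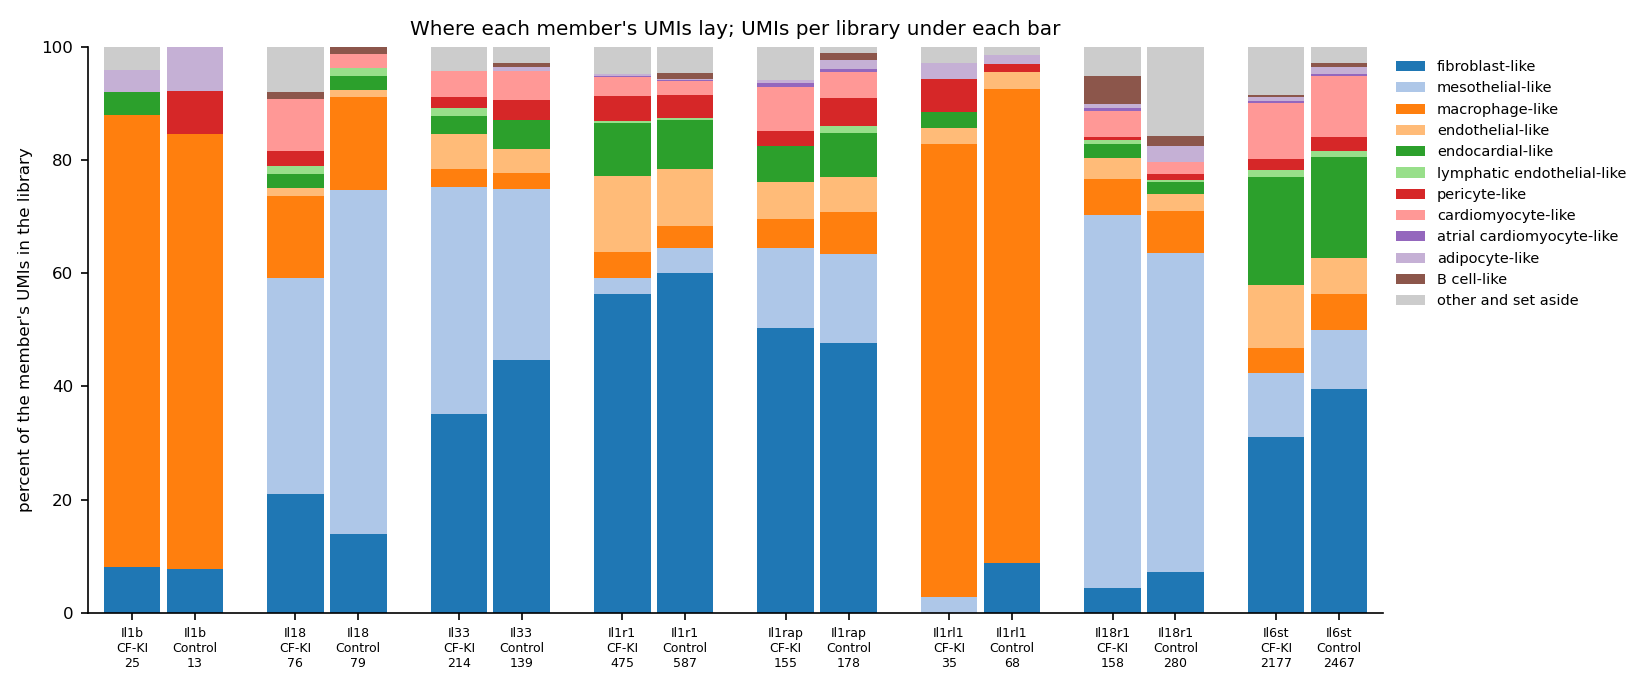
Percent of each gene's UMIs in a library (y axis) that lay in each class of nuclei (colours), with the number of UMIs under each bar. Il1b and Il1rl1 lie mostly in macrophage-like nuclei, Il18r1 mostly in mesothelial-like nuclei, and Il33 is divided between mesothelial-like nuclei (40.2% in CF-KI and 30.2% in Control) and fibroblast-like nuclei (35.0% and 44.6%).

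The bars of UMIs by class and the levels in CPM rank classes differently: fibroblast-like nuclei, which are numerous, held the most UMIs of Il1rap and Il6st in both libraries and of Il33 in Control. By CPM, for each of the 7 genes with at least 20 UMIs in both libraries, the class of highest CPM was the same in CF-KI and Control: mesothelial-like for Il18, Il33, Il18r1 and Il1rap, fibroblast-like for Il1r1, macrophage-like for Il1rl1 and endocardial-like for Il6st. Il18 and its receptor gene Il18r1 thus shared a class, and were seen in the same mesothelial-like nucleus 3 times in CF-KI and 10 times in Control (4.09 and 7.37 from the product of shares). Il33 and Il1rl1 did not share their class of highest level, and nor did Il1b and Il1r1.

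Differences between the libraries were few among the 10 genes. A call means at least 2-fold, with counts under 3 set to 3, among genes with at least 20 UMIs in the 2 libraries together. Over all nuclei 1 of 8 such genes, Il1b, was called higher in CF-KI and 0 lower, while 3.32% and 5.75% of 16019 genes were called. In fibroblast-like nuclei 0 of 6 were called higher and 1, Il18r1, lower (background 5.48% and 2.79%). In mesothelial-like nuclei 1 of 6, Il33, was called higher and 0 lower (6.59% and 3.95%), a call that ended without the Dmkn-led nuclei (0.90). In macrophage-like nuclei 1 of 7, Il1b, was called higher and 0 lower (6.35% and 5.06%). In cardiomyocyte-like nuclei 1 of 3, Il1rap, was called higher and 0 lower (10.4% and 1.98%). None was called in the other classes: 0 of 3 in endothelial-like (3.04% and 4.13%), 0 of 3 in endocardial-like (6.58% and 3.29%), 0 of 2 in pericyte-like (13.3% and 5.61%), and 0 of 1 each in lymphatic endothelial-like (9.61% and 6.11%), adipocyte-like (9.12% and 9.47%) and B cell-like nuclei (6.39% and 13.8%). Atrial cardiomyocyte-like nuclei had no gene of the 10 with enough UMIs (20.4% and 12.3%). The median log2 ratio was 0.00 over all nuclei, 0.08 in fibroblast-like, -0.06 in mesothelial-like and -0.24 in macrophage-like nuclei, beside -0.07, -0.03, 0.04 and -0.01 over all genes tested.

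**Figure D4:**
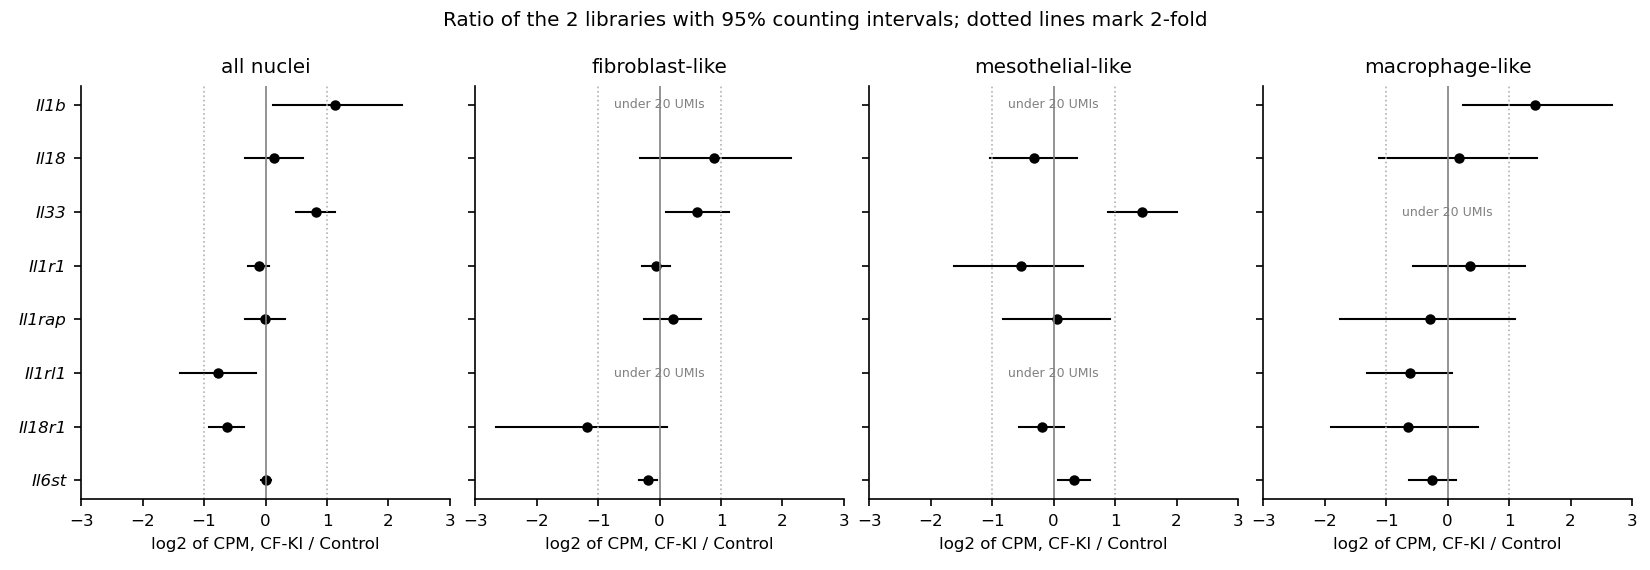
Log2 ratio of CPM, CF-KI over Control (x axis), of 8 genes (y axis) in all nuclei and 3 classes, with counting intervals as lines and dotted lines at 2-fold in either direction. Il33 in mesothelial-like nuclei sits at 1.44 with an interval from 0.89 to 2.01, and the receptor genes with the most UMIs sit near 0.

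Of the ratios plotted by gene, Il33 in mesothelial-like nuclei was the one call in a class whose interval lay wholly above 0.5. It was recomputed under 15 alternatives and ranged from 0.90 to 1.64. Il1b in macrophage-like nuclei ranged from 0.45 to 2.38 under 13.

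**Figure D5:**
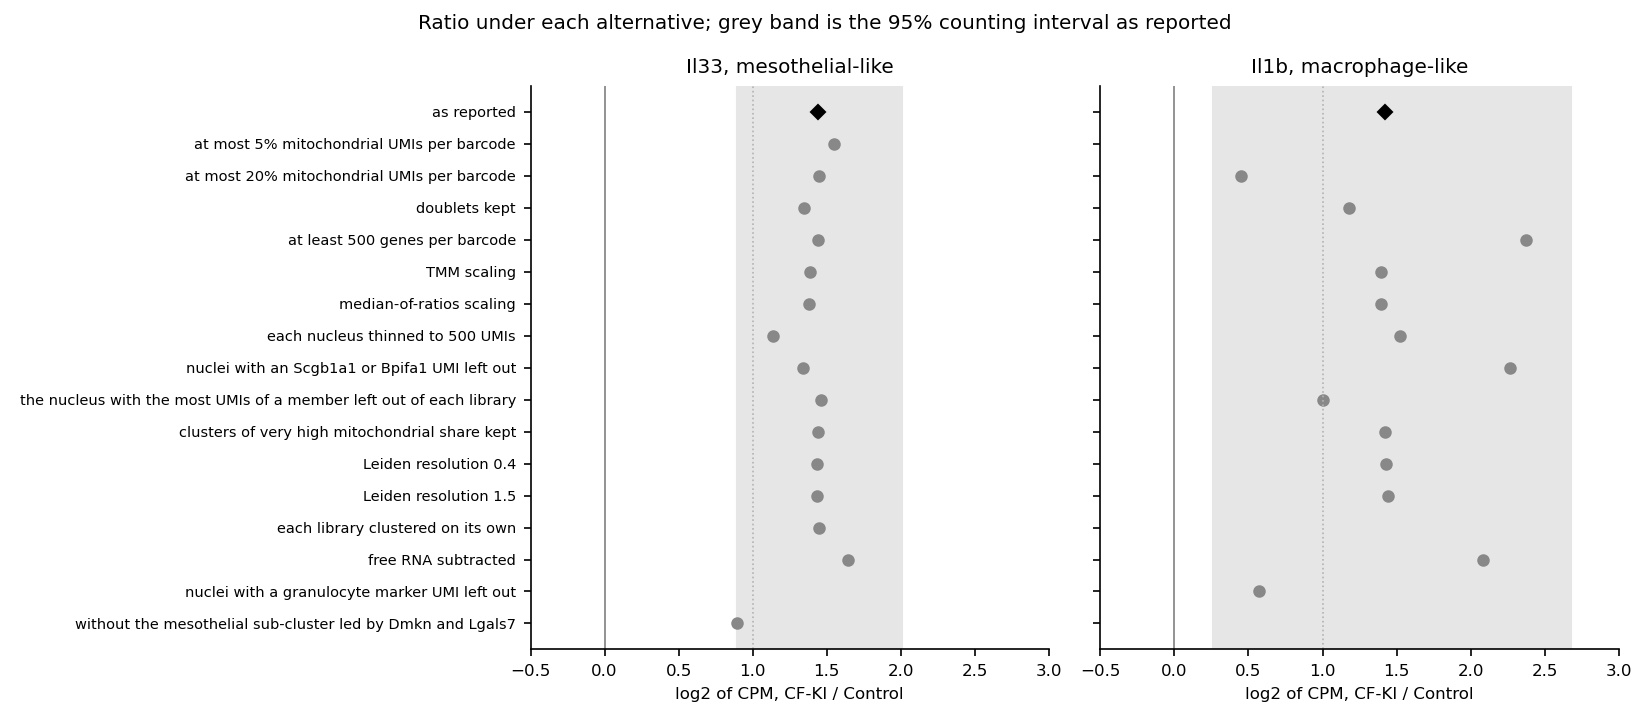
Log2 ratio of Il33 in mesothelial-like nuclei and of Il1b in macrophage-like nuclei (x axes) under each alternative (y axis), with the reported value as a diamond and its counting interval as a grey band. Il33 stays between 0.90 and 1.64 and Il1b spreads from 0.45 to 2.38.

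The plot of alternatives shows the sparse gene moving more than the better-counted one. The other genes of these pathways were counted from lists that do not repeat the 10. These lists were chosen with earlier results of these data known, so their counts are a description. In fibroblast-like nuclei, where 5.48% of all genes were called higher and 2.79% lower, of 16 response genes that interleukin-1 is known to raise in stromal cells, 11 had at least 20 UMIs and 3 were called higher and 0 lower: Ccl2 (104 CPM in CF-KI against 37.9 CPM, log2 ratio 1.46), Ccl7 (40.0 against 17.2 CPM, 1.21), both chemokines that draw monocytes, and Has1 (11.99 against 5.10 CPM, 1.23), a hyaluronan synthase. Of the interleukin-6 family list, 9 of 13 were counted there and 0 were called higher and 2 lower, against the 2.79% of all genes: Il27ra (3.69 against 14.1 CPM, -1.93), a receptor chain for interleukin-27, and Cntfr (8.61 against 19.2 CPM, -1.16), the receptor of ciliary neurotrophic factor. None of 16 genes of Toll/interleukin-1 receptor signalling, 10 NF-kappaB genes or 9 JAK and STAT3 genes was called in fibroblast-like nuclei, and their medians were -0.11, 0.20 and -0.07. Fibroblast-like nuclei differed between the libraries in other ways too: the estimated free RNA was 47.8% in CF-KI and 22.6% in Control, the median mitochondrial share 15.9% and 5.92%, the sum of 12 cardiomyocyte markers 20686 CPM and 5990 CPM, and that of 12 fibroblast markers 25750 CPM and 44210 CPM. Their part in these ratios, and that of the uneven clusters, was not tested.

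Macrophage-like nuclei gave calls in both directions, with 6.35% of all genes called higher and 5.06% lower. Among 6 counted response genes Steap4, a metalloreductase (30.6 against 7.05 CPM, 2.12), and Cxcl2, a neutrophil chemokine (17.7 against 4.40 CPM, 2.01), were higher, and Ccl2 was lower (34.2 against 122 CPM, -1.83). Casp1, the protease that cuts the precursors of interleukin-1beta and interleukin-18, was lower in macrophage-like nuclei (15.3 against 38.8 CPM, -1.34). It was the 1 gene called there of the 5 of the maturation list, which include Nlrp3, the altered gene. The ratios of all 5 were below 0, with a median of -0.76 beside -0.01 over all genes of the class. Over all nuclei 1 of the 5 was called higher and 0 lower (3.32% and 5.75% of all genes), with a median of -0.16. The gene called higher there was Nlrp3, with 34 UMIs in CF-KI and 19 in Control. In macrophage-like nuclei the receptor chain Lifr (193 against 417 CPM, -1.11) and the signalling genes Irak4 (-1.03) and Tollip (-1.30) were also lower. These ratios stand beside the lower macrophage marker sum and higher free RNA estimate of CF-KI and the uneven sub-clusters given above. The CF-KI class also holds the nucleus with 313 UMIs of granulocyte markers. The part of each in these ratios was not tested.

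In cardiomyocyte-like nuclei 4 of 5 counted response genes were called higher, with 10.4% of all genes called higher and 1.98% lower. The class came from different clusters in the libraries, cluster 3 with 2219 CF-KI and 239 Control nuclei and cluster 5 with 179 and 1949. They were the adhesion gene Vcam1 (log2 ratio 1.00), Ccl2 (11.1 against 1.74 CPM, 2.68), the adhesion gene Icam1 (4.17 against 1.22 CPM, 1.78) and Steap4 (1.19). Of 7 NF-kappaB genes 3 were higher, the inhibitors Nfkbia (1.04) and Nfkbib (1.42) and the factor Relb (1.00). The free RNA estimate for these nuclei was 18.2% in CF-KI and 8.66% in Control, and the part of free RNA and of the clusters was not tested. In endothelial-like nuclei Socs1, a suppressor of JAK signalling, was lower (4.58 against 14.8 CPM, -1.69), as was Il27ra (-1.28), and no list gene was called higher there, with 3.04% of all genes called higher and 4.13% lower. In mesothelial-like nuclei (6.59% and 3.95%) Nfkbia (1.10) and Steap4 (1.09, -0.14 to 2.39) were higher, and the signalling genes Ikbkb (-1.06) and Peli1 (-1.23) lower. Among other receptors of the family, Il1rapl1, a synaptic relative of Il1rap, had 151 CPM and 129 CPM in mesothelial-like nuclei (log2 ratio 0.22), and Sigirr, an inhibitory receptor, 41.2 CPM and 51.8 CPM in endothelial-like nuclei (-0.33).

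Genes whose levels ran most like those of the 10 were found across 22 points, the 11 classes in each library, by Pearson's r of log2(CPM + 1). These points share depth and free RNA within a library, so r is a description. Il33 was most like C2 (0.89), Adgrd1 (0.89) and Akr1b8 (0.88), and Il18 most like Cyp2s1 (0.86), Rspo1 (0.82) and Gm12840 (0.82). For Il18r1 the leading genes were Arid4b (0.81), Ap4e1 (0.80) and Trp53inp1 (0.79), for Il1rl1 Pf4 (0.84), F13a1 (0.83) and Slc43a2 (0.81), and for Il1r1 Sppl3 (0.90), Maged2 (0.88) and Gabbr1 (0.88). Il1rap ran most like Tm7sf3 (0.90), Prkcsh (0.87) and Vgll3 (0.86), and Il6st most like Eln (0.88), Casp12 (0.88) and Lrpap1 (0.88).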

How the data were processed

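Nuclear RNA of mouse cardiac tissue was measured in 1 CF-KI and 1 Control library. The deposited matrices hold UMI counts per gene and barcode, made by the authors with Cell Ranger 6.1.1 on mm10, per the submitters' processing notes; settings for cell calling and introns are not given in the sources used here. Features sharing a symbol were summed (32245 symbols), and 32158 of 32285 identifiers matched GENCODE vM21.

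Barcodes with at least 200 genes were kept without a mitochondrial limit, since a limit of 5% leaves few CF-KI nuclei outside cardiomyocytes; it is an alternative. Scrublet (scanpy 1.11.5) called 15.3% of CF-KI and 3.02% of Control barcodes doublets, which were removed. Both libraries were clustered together (2000 variable genes, 30 components, 15 neighbours, leidenalg 0.10.2, resolution 0.8). Clusters with a median mitochondrial share above 50% were set aside from every class (1794 and 237 nuclei). These nuclei were 14.1% of CF-KI and 2.18% of Control, with 10 of 12 cardiomyocyte markers raised. They are included in all values over all nuclei. Names followed whichever markers were raised in the greatest proportion, with 3 or more required. The rebuilt names rest on marker RNA. The B cell-like class also holds T and natural killer cell genes, and the pericyte-like class also holds smooth muscle genes.

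CPM are UMIs of a gene per 1000000 non-mitochondrial UMIs of a class, with exact Poisson intervals. Shares have Clopper-Pearson intervals, ratios have conditional exact intervals, and limits for 0 use 3 counts. Medians add 0.5 UMIs to each count. Free RNA was estimated from cardiomyocyte markers, and in the cardiomyocyte classes from fibroblast, endothelial, macrophage, mesothelial and pericyte markers. It is a median over markers that spread widely, such as from 10.5% to 99.9% in fibroblast-like nuclei of CF-KI. Ratios and intervals were tested on simulated data with a known log2 change of 1.5. The share of intervals holding the true value was 95.8% in fibroblast-like, 96.4% in macrophage-like and 96.1% in mesothelial-like nuclei. The intervals still cover counting error only. How strand was used in counting genes with antisense partners is not given in the sources used here.

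The members, marker lists and pathway lists were chosen with earlier results of these data known. Text names the 10 members, Nlrp3, list genes at least 2-fold apart in 4 classes (up to 5 higher and 5 lower), the 3 genes (of at least 200 UMIs) most like each member of at least 100 UMIs, and leading genes of checked clusters. Il18rap, Il1rapl1, Sigirr, Relb, Vcam1, Ikbkb, Peli1 and, in mesothelial-like nuclei, Nfkbia and Steap4 were named after their values were seen. Scaling alternatives used edgeR 4.0.16 (TMM) and DESeq2 1.42.0 (median of ratios). 4 alternatives that leave out nuclei were added after seeing the data.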

Additional observations from a re-analysis of the deposited data

How the results depend on the processing

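No paired analysis was possible because each group has 1 library, and for the same reason no replicate could be left out. Of 511 recomputed ratios of single genes 487 lay within the counting interval of the reported ratio. The sign changed in 54, of which 53 belong to reported ratios under 2-fold (sizes up to 0.83), such as Il1rap and Il6st over all nuclei, which kept it in 3 and 4 of 9 alternatives. The other, Il1b over all nuclei, was -0.21 with at most 5% mitochondrial UMIs, a limit that leaves mostly cardiomyocyte-like nuclei in CF-KI. Of 134 recomputed counts and medians 109 stayed within their limits and 25 moved. Over all nuclei the count of members called higher (1) was 0 with at most 5% or 20% mitochondrial UMIs, after thinning to 500 UMIs, for members with at least 100 UMIs and without the nucleus of most UMIs. The count called lower (0) was 2 at the 5% limit (Il1r1 and Il1rl1) and 1 after thinning (Il1rl1), and the median was -0.83 at the 5% limit. In fibroblast-like nuclei the count higher (0) was 1 after thinning (Il33, 1.06) and 1 without nuclei with airway RNA (Il18, 1.24). The count lower (1) was 0 at the 5% limit, with free RNA subtracted, after thinning, for members with at least 100 UMIs and without nuclei with airway RNA. Il18r1 nevertheless lay between -2.05 and -1.17 in all 12 alternatives that gave it a ratio, thinning and the airway setting among them, where too few UMIs were left for the minimum of 20. The median was 0.65 at the 5% limit and 0.48 with free RNA subtracted. In macrophage-like nuclei the count higher (1) was 0 at the 20% limit, after thinning, for members with at least 100 UMIs and without nuclei with granulocyte RNA, and 2 with a minimum of 1 UMI. The count lower (0) was 1 with free RNA subtracted, where Il6st was -1.32, and the median was 0.19 with a minimum of 1 UMI and 0.16 without nuclei with airway RNA. In mesothelial-like nuclei the Il33 call was lost without the Dmkn-led sub-cluster (0.90). A higher minimum leaves fewer members to count, and for the other settings the cause was not tested. Macrophage-like nuclei gave no value at the 5% limit (27 CF-KI nuclei) or with each library clustered on its own. The class of highest CPM was the same in both libraries for 7 of 7 members. It was the same for 6 of 7 with doublets kept or at least 500 genes (Il6st was then highest in mesothelial-like nuclei of CF-KI). After thinning it was the same for 5 of 6 (Il1rap was then highest in lymphatic endothelial-like nuclei of Control). At the 5% limit 5 members were ranked over 4 classes, and with each library clustered on its own 6 members over 7 classes. Macrophage-like nuclei, the class of Il1rl1, were in neither ranking. Il6st was highest in mesothelial-like nuclei of both libraries at the 5% limit.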

Other observations

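Receptor RNA was also seen outside the classes compared. Airway epithelial-like nuclei, found in Control alone, held 21 Il1r1 UMIs (67.2 CPM, 41.6 to 102.8), 41 Il18r1 UMIs (131 CPM, 94.2 to 178) and 30 Il6st UMIs (96.0 CPM), and 0 of Il1b, Il18 and Il1rl1. A B cell-like sub-cluster led by the cytotoxic cell genes Ccl5, Gzma and Nkg7 held 6 Il18r1 UMIs in 16 CF-KI nuclei and 0 in 13 Control nuclei. In mesothelial-like nuclei Il33 and Il18 were seen together in 8 CF-KI and 5 Control nuclei, where the product of their shares gives 3.28 and 2.07, and Il33 and Il18r1 in 8 and 16 nuclei, where it gives 8.60 and 6.98. Deeper nuclei hold more UMIs of every gene, and the part of depth in these counts was not tested.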
